A study of Bos taurus and Sus scrofa with 10 samples.

Results

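The genes described here encode factors that protect imprints or methylate lysine 9 of histone H3 (H3K9), followed from the oocyte to the blastocyst in cattle (Bos taurus, called cow here) and pigs (Sus scrofa). The 10 genes were chosen by name: ZFP57, ZNF445, TRIM28, SETDB1, EHMT1, EHMT2, SUV39H1, SUV39H2, CTCF and CTCFL. Of these, 8 were matched by symbol among 22845 cow gene rows and 8 among 21867 pig gene rows, and 6 were matched in both species. CTCF and CTCFL were not analysed here in cow, and EHMT1 and EHMT2 were not analysed here in pig. Total RNA of each species was sequenced at 5 stages, namely oocytes, 2-4 cell embryos, 8-16 cell embryos, morulae and blastocysts. A stage was represented by 1 library per species, so no difference below has a replicate check, and intervals cover counting error only. The labels name no genotype, treatment, breed or embryo culture, and do not say how many oocytes or embryos were pooled.

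Imprinted genes are expressed from the copy of a single parent because DNA methylation at their control regions differs between the parental copies. After fertilisation most of the genome loses methylation, and the zinc finger proteins ZFP57 and ZNF445 bind the methylated imprint control regions and call in TRIM28 (also named KAP1). TRIM28 is a scaffold that brings the H3K9 methyltransferase SETDB1, the heterochromatin protein HP1 and DNA methyltransferases to the bound site. SUV39H1 and SUV39H2 trimethylate H3K9 in heterochromatin around centromeres, and EHMT1 (GLP) and EHMT2 (G9a) work as a complex that places the lower H3K9 methylation states in euchromatin. CTCF binds the unmethylated copy of several imprint control regions and insulates the genes around it, and CTCFL (BORIS) is its relative from the germ line.

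Values are reads per 1000000 reads of the library (RPM), a unit that serves to follow one gene over the stages and, without gene lengths, not to rank genes against each other. Read totals ranged from 3002751 to 14182046 per library, and 0 reads allow a level of up to 0.212 RPM in the deepest library and up to 0.999 RPM in the shallowest one. Changes are differences of log2(RPM + 1), and a gene is said to have risen or fallen where this difference reached 2, which is 4-fold on the RPM + 1 scale, provided that one of the stages had 1 RPM or more. Marker genes followed the stage labels: 8 cow oocyte markers summed to 5370 RPM in the oocyte library and 0.282 RPM in the blastocyst library, and 7 pig ones to 5088 and 21.2 RPM. Blastocyst markers summed to 23.3 and 2949 RPM in cow (7 genes) and to 7.11 and 7216 RPM in pig (8 genes). Of the markers of cumulus and granulosa cells, 3 of 10 were at 1 RPM or more in the cow oocyte library and 2 of 7 in the pig one, with summed levels of 19.3 to 109 RPM over the cow libraries and 12.1 to 30.0 RPM over the pig libraries. FSHR, CYP19A1, PTX3 and INHBA had more than 3 reads in the cow oocyte library, where the whole list summed to 44.6 RPM. The pig oocyte library had more than 3 reads of FSHR and CYP19A1, and its list total was 16.0 RPM. AMH, AMHR2, FOXL2, CYP11A1 and LHCGR were at 0 reads in the cow oocyte library, and CYP11A1, TNFAIP6 and INHBA in the pig one. The part of such cells in the values below was not tested. Mitochondrial genes took between 2.74% of the reads (cow 2-4 cell library) and 30.2% (cow blastocyst library), and the RPM of every other gene is relative to a total that includes these reads.

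ZFP57, which recognises a methylated motif in imprint control regions, had no reads in the early libraries of both species and was first detected at different stages. In cow it had 0 reads in oocytes, 0 reads in 2-4 cell embryos, 17.7 RPM in 8-16 cell embryos (95% Wilson interval 14.5 to 21.6), 11.3 RPM in morulae (8.41 to 15.1) and 0.987 RPM in blastocysts (0.588 to 1.66). Cow ZFP57 was thus highest in the middle of the series, and its blastocyst level was lower than its morula level by more than counting error. In pig it had 0 reads in oocytes, 2-4 cell and 8-16 cell embryos, 6.33 RPM in morulae (4.05 to 9.88) and 39.9 RPM in blastocysts (34.0 to 46.9). Pig ZFP57 was thus highest at the last stage, where the cow gene had 14 reads. Against the 3 reads that a count of 0 allows, cow ZFP57 rose at least 26.1-fold between 2-4 cell and 8-16 cell embryos (lower limit of the counting interval of the ratio 20.9), and 2.94% of the genes compared at that step had a larger increase. It then fell 11.4-fold between morulae and blastocysts (interval of the ratio 6.15 to 22.6). Pig ZFP57 rose at least 6.68-fold between 8-16 cell embryos and morulae by the same floor (lower limit 4.92), and 6.31-fold between morulae and blastocysts (3.90 to 10.8). Against the floor of the oocyte library, which was sequenced to another depth than the 8-16 cell one, pig blastocysts were at least 45.0-fold higher (lower limit 36.1). In a bulk library, fewer cells with a transcript and less transcript per cell cannot be told apart, which holds for every value here.

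The cow ZFP57 row lies on chromosome 23, 28735960 to 28739682, on the plus strand (build UMD3.1, per the submitters' processing notes). Its last 352 bases overlap MOG, the gene of a myelin protein, which lies on the minus strand. The MOG row also had 0 reads in cow oocytes and 2-4 cell embryos, followed by 129 RPM in 8-16 cell embryos, 103 in morulae and 48.4 in blastocysts. ZFP57 had 13.7 reads per 100 MOG reads in 8-16 cell embryos, 10.9 in morulae and 2.04 in blastocysts, so the ratio of both rows was not constant. Whether counting used strand is not given in the sources used here, and the part of MOG transcripts in the cow ZFP57 values was not tested. The pig ZFP57 row (chromosome 7, 22607420 to 22612064, minus strand, build Sscrofa11.1) overlaps no other row.

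**Figure D1:**
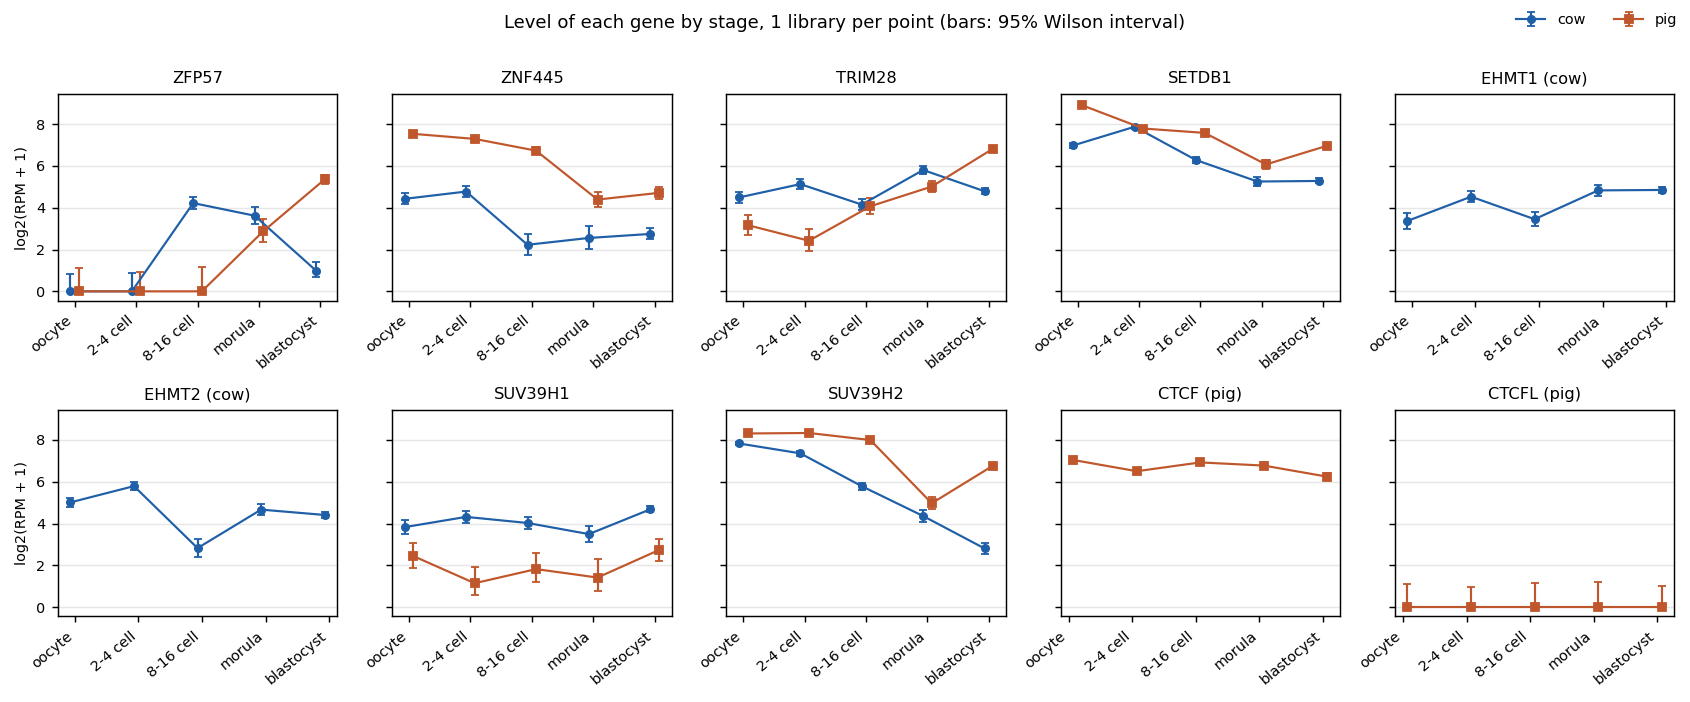
Level of each gene as log2(RPM + 1) (vertical axis) at the 5 stages (horizontal axis) in cow (blue circles) and pig (orange squares), 1 library per point, with 95% Wilson intervals as bars. ZFP57 leaves 0 at the 8-16 cell stage in cow and at the morula in pig, ZNF445 drops at those same stages, and CTCFL stays at 0 reads in all 5 pig libraries.

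ZNF445, the other zinc finger protein that binds imprint control regions, was high where ZFP57 had no reads. In cow it stood at 20.5 RPM in oocytes, 26.4 in 2-4 cell embryos, 3.68 in 8-16 cell embryos, 4.87 in morulae and 5.71 in blastocysts. The oocyte and 2-4 cell levels did not differ beyond counting error, nor did neighbours among the 3 later levels. In pig ZNF445 stood at 184 RPM in oocytes, 156 in 2-4 cell embryos, 105 in 8-16 cell embryos, 19.98 in morulae and 25.2 in blastocysts. The first 3 pig levels lay above the last 2, which did not differ from each other beyond counting error. ZNF445 fell 7.16-fold between cow 2-4 cell and 8-16 cell embryos (interval 4.43 to 12.2) and 5.26-fold between pig 8-16 cell embryos and morulae (3.99 to 7.05). Over the whole course pig ZNF445 fell 7.32-fold (5.88 to 9.19). These are the steps at which ZFP57 first appeared in each species. The pig ZNF445 span (chromosome 13, 27748438 to 27783513) shares 4356 bases with an unnamed gene on the other strand, whose own level was between 1.34 and 18.3 RPM. The cow span (chromosome 22, 16367996 to 16376583) overlaps no other row.

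As a share of ZFP57 and ZNF445 reads together, which does not depend on how the library was scaled, ZFP57 went from 0 of 117 reads in cow 2-4 cell embryos, which allows up to 2.56%, to 82.8% in 8-16 cell embryos (74.9 to 88.6). It was 69.8% in cow morulae (57.6 to 79.8) and 14.7% in blastocysts (8.99 to 23.2). In pig the share was 0 of 333 reads in 8-16 cell embryos, which allows up to 0.901%, then 24.1% in morulae (15.97 to 34.5) and 61.3% in blastocysts (55.1 to 67.2). This share was looked at after the values of both genes were seen. Between these last stages the share was lower in cow and higher in pig, and in neither species did the intervals overlap.

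TRIM28, the scaffold that both zinc finger proteins bind, was present at every stage. In cow it stood at 21.5 RPM in oocytes, 34.02 in 2-4 cell embryos, 16.8 in 8-16 cell embryos, 54.9 in morulae and 26.7 in blastocysts. The cow values alternated with no change of 4-fold at any step, and the morula held the highest. In pig TRIM28 stood at 7.99, 4.35, 15.8, 31.3 and 113 RPM in the same order of stages. Each pig level from the 8-16 cell stage on lay above all earlier ones by more than counting error. No single pig step reached 4-fold: the 3 last changes were 1.65, 0.94 and 1.82, and over the whole course TRIM28 rose by 3.66, which was 14.1-fold in RPM (9.57 to 21.7). The pig TRIM28 span (chromosome 6, 63081667 to 63104976) lies wholly inside an unnamed gene of 628059 bases on the other strand. That row had 180.3 RPM in pig oocytes and 746 RPM in blastocysts, 4.14-fold more, and its part in the TRIM28 values was not tested. TRIM28 had between 2.88 and 15.1 reads per 100 reads of that row, so both rows did not move in a fixed ratio. The cow TRIM28 span (chromosome 18, 65954144 to 65960263) overlaps no other row.

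SETDB1, which trimethylates H3K9 at sites held by TRIM28, was higher at the first 2 stages than later in both species. In cow it stood at 125 RPM in oocytes, 234 in 2-4 cell embryos, 76.8 in 8-16 cell embryos, 37.2 in morulae and 37.9 in blastocysts. The cow morula and blastocyst levels did not differ beyond counting error, and all other neighbours in the order did. In pig SETDB1 stood at 479.6 RPM in oocytes, 220.4 in 2-4 cell embryos, 190.5 in 8-16 cell embryos, 66.3 in morulae and 124 in blastocysts. The pig morula held the lowest level, and the blastocyst level was 1.88-fold above it (interval 1.59 to 2.23). No step reached 4-fold in either species. From oocyte to blastocyst the ratio was 3.31-fold lower in cow (2.94 to 3.72) and 3.86-fold lower in pig (3.48 to 4.28), a change of -1.70 and -1.94. With median ratio scaling the pig change was -2.08, past the threshold. The pig SETDB1 span (chromosome 4, 98256868 to 98293486) shares 3636 bases with CERS2, a ceramide synthase gene on the other strand, which went from 256 to 51.5 RPM over the same course. The part of CERS2 in the pig SETDB1 values was not tested. The cow span (chromosome 3, 19844271 to 19875888) overlaps no other row.

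The reads of SUV39H2 per read of SUV39H1 were fewer in blastocysts than in oocytes in both species. SUV39H2 (cow chromosome 13, 29813365 to 29835882) stood at 226 RPM in cow oocytes, 163 in 2-4 cell embryos, 54.1 in 8-16 cell embryos, 19.5 in morulae and 5.99 in blastocysts. Each cow stage was below the one before it by more than counting error, and the whole course gave a 37.8-fold fall (interval 30.3 to 47.7). No single cow step of SUV39H2 reached 4-fold, with changes of -0.47, -1.57, -1.43 and -1.55. In pig SUV39H2 (chromosome 10, 46874608 to 46900082) stood at 316, 321, 254, 30.3 and 108 RPM in the order of the stages. The first 2 pig levels did not differ beyond counting error. Pig SUV39H2 fell 8.38-fold between 8-16 cell embryos and morulae (6.74 to 10.5), and 96.4% of the genes compared had a larger, meaning less negative, change at that step. It was then 3.57-fold higher in the blastocyst than in the morula library (2.84 to 4.54), a change of 1.80 that is under the threshold.

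SUV39H1, on the X chromosome in both species (cow 91856090 to 91868994; pig 42797159 to 42814003), had no change past the threshold. It stood at 13.2, 18.9, 15.3, 10.3 and 24.6 RPM in the cow libraries, in stage order. Ranked by level, only the top cow value, in the blastocyst library, lay above the next one by more than counting error. Between consecutive cow stages the level was 1.44-fold higher in 2-4 cell embryos than in oocytes (interval 1.03 to 2.02). It was 1.49-fold lower in morulae than in 8-16 cell embryos (1.01 to 2.23), and 2.40-fold higher in blastocysts than in morulae (1.73 to 3.42). In pig it stood at 4.44, 1.21, 2.53, 1.67 and 5.63 RPM, from between 5 and 21 reads per library. Ranked by level, no pig value differed from the next one beyond counting error. Between consecutive stages 2 pig steps did: the level fell 3.68-fold from oocytes to 2-4 cell embryos (interval 1.27 to 12.9). It was 3.38-fold higher in blastocysts than in morulae (1.24 to 11.5). SUV39H2 made up 94.5% of the reads of both genes in cow oocytes (95% Wilson interval 93.0 to 95.7), 89.6% in 2-4 cell embryos, 77.98% in 8-16 cell embryos, 65.5% in morulae and 19.6% in blastocysts (16.1 to 23.6). In pig the share was 98.6% in oocytes (97.7 to 99.2) and 95.1% in blastocysts (92.6 to 96.7), with a lowest value of 94.8% in morulae (88.4 to 97.8). A share so near its upper end hides changes of the ratio: pig SUV39H2 had 71.1 reads per SUV39H1 read in oocytes, 266 in 2-4 cell embryos, 100.5 in 8-16 cell embryos, 18.2 in morulae and 19.2 in blastocysts, with the SUV39H1 counts between 5 and 21. In cow this ratio was 17.2 in oocytes and 0.244 in blastocysts. The oocyte and blastocyst intervals of the share did not overlap in either species. These shares compare stages within a gene pair; since reads are not divided by gene length, they do not say which enzyme has more transcripts.

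**Figure D2:**
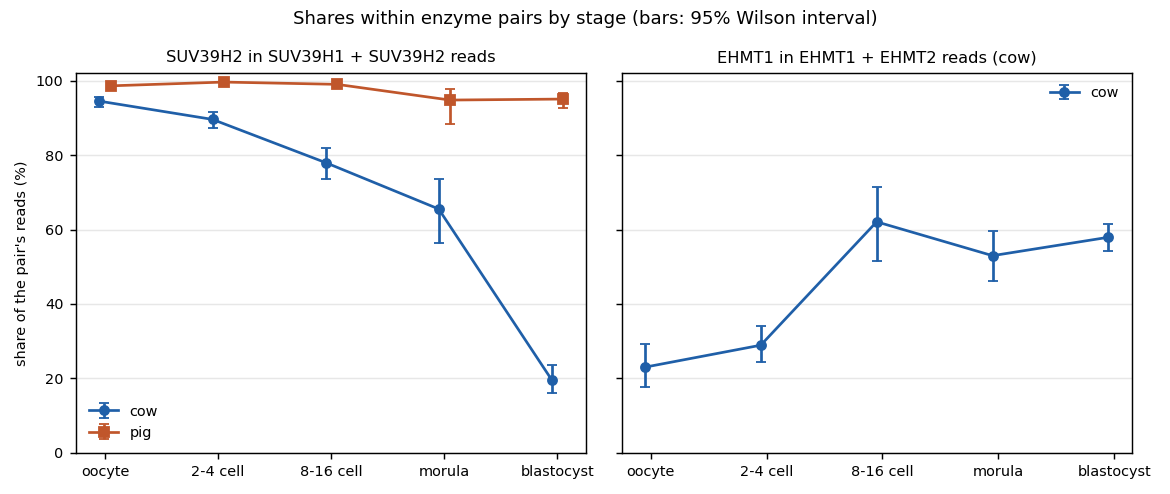
Share of reads within 2 pairs of H3K9 methyltransferases (vertical axis, percent) at each stage, with 95% Wilson intervals as bars, in cow (blue circles) and pig (orange squares). The SUV39H2 share goes from 94.5% to 19.6% in cow and from 98.6% to 95.1% in pig, where the percent scale compresses a ratio of 71.1 reads per SUV39H1 read in oocytes and 19.2 in blastocysts, and the cow EHMT1 share is highest, at 62.1%, at the 8-16 cell stage.

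EHMT1 and EHMT2, whose proteins act together, were analysed in cow alone and did not keep a fixed ratio. EHMT1 (chromosome 11, 105429172 to 105493391) stood at 9.33 RPM in oocytes, 22.1 in 2-4 cell embryos, 9.94 in 8-16 cell embryos, 27.4 in morulae and 27.9 in blastocysts. Its 2-4 cell, morula and blastocyst levels lay together above the other 2, and no change reached 4-fold. EHMT2 (chromosome 23, 27277900 to 27291344) stood at 31.2, 54.3, 6.07, 24.4 and 20.2 RPM in the same order. EHMT2 was lowest at the 8-16 cell stage, to which it fell 8.94-fold after the 2-4 cell stage (6.20 to 13.3), and at that step 96.8% of the genes compared had a less negative change. The morula level was 4.01-fold above the 8-16 cell level (2.67 to 6.15), a change of 1.84 on the log2(RPM + 1) scale. EHMT1 made up 23.0% of the pair's reads in oocytes (17.7 to 29.3), 28.9% in 2-4 cell embryos, 62.1% in 8-16 cell embryos (51.6 to 71.5), 52.97% in morulae and 57.9% in blastocysts (54.2 to 61.6). The share was thus higher at the last 3 stages than at the first 2.

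CTCF was the steadiest of the pig genes with reads in every library, and CTCFL was not detected. CTCF (chromosome 6, 28195326 to 28261009) stood at 131 RPM in oocytes, 89.6 in 2-4 cell embryos, 120.3 in 8-16 cell embryos, 108 in morulae and 74.5 in blastocysts. Its highest level was 1.75 times its lowest, against 4.66 to 26.0 times for the other 5 pig genes with reads in every library. In the order of its levels, oocytes and 8-16 cell embryos did not differ beyond counting error, nor did 8-16 cell embryos and morulae, while morulae, 2-4 cell embryos and blastocysts each did from the next. CTCFL (chromosome 17, 57861788 to 57891094) had 0 reads in all 5 pig libraries, which allows levels of up to 0.725 to 0.999 RPM.

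Changes past the threshold among these genes fell on 2 of the 4 steps in each species. Between cow 2-4 cell and 8-16 cell embryos 3 of 8 changed, ZFP57 higher and ZNF445 and EHMT2 lower, where 27.2% of all 12405 genes compared changed (12.6% higher and 14.6% lower). Between pig 8-16 cell embryos and morulae 3 of 7 changed, ZFP57 higher and ZNF445 and SUV39H2 lower, where 23.3% of 12746 genes changed (12.0% higher and 11.3% lower). With so few genes, these shares are near the background and are no result about the genes as a set. The medians of these genes were -1.32 at the cow step and -0.40 at the pig step, against -0.44 and 0.18 over all genes compared, and they were the same with ZFP57 at its bound. At the step to the blastocyst 1 of 8 changed in cow, where ZFP57 fell (23.4% of all genes changed, 11.9% higher and 11.5% lower). In pig 1 of 7 changed at that step, where ZFP57 rose (27.6% of all genes, 13.8% higher and 13.8% lower). None of 7 cow genes changed at the first step (0.374% of all genes, 0.196% higher and 0.178% lower). None of 8 cow genes changed between 8-16 cell embryos and morulae (11.8% of all genes, 6.67% higher and 5.15% lower). None of 6 pig genes changed at the first step (5.43% of all genes, 3.26% higher and 2.17% lower) or at the second (4.87%, with 4.33% higher and 0.543% lower). ZFP57 was not compared at the first step in either species or at the second in pig, and CTCFL at no step, since they were below 1 RPM in both stages.

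**Figure D3:**
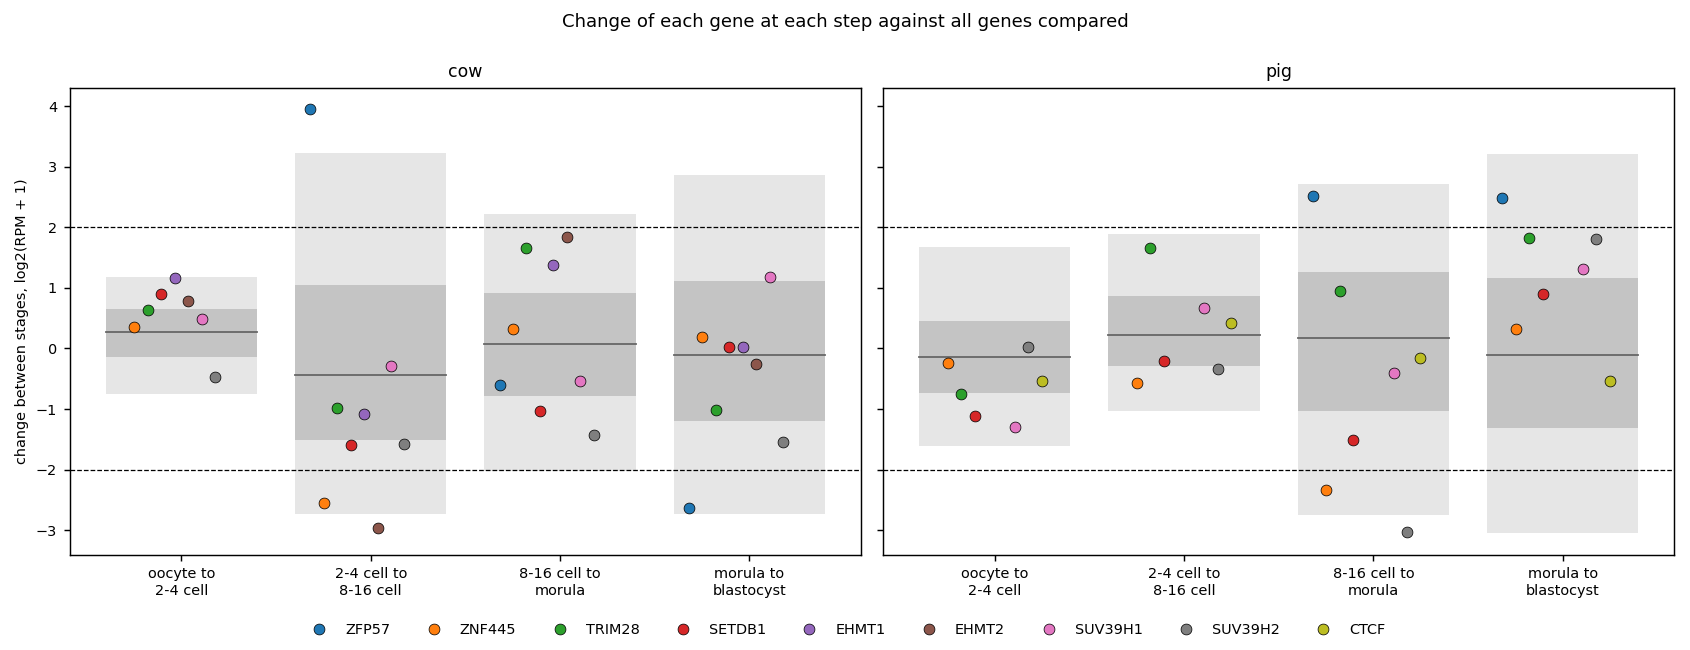
Change of each gene between consecutive stages on the log2(RPM + 1) scale (vertical axis) at the 4 steps in cow (left) and pig (right). Grey boxes give the range from the 5th to the 95th percentile (light) and from the 25th to the 75th (dark) over all genes compared, with the median as a line, and dashed lines mark a change of 2 in each direction. Points past the dashed lines lie at the second and last steps in cow, and at the third and last in pig.

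The steps at which ZFP57 was first detected, to 8-16 cell embryos in cow and to morulae in pig, can be set side by side gene by gene. The change was 3.96 in cow and 2.51 in pig for ZFP57, and -2.55 and -2.34 for ZNF445. It was -1.59 and -1.51 for SETDB1, and -1.57 and -3.03 for SUV39H2. SUV39H1 had changes of -0.29 in cow and -0.40 in pig, the former between 0.02 and 0.04 with quantile or median ratio scaling. TRIM28 differed in sign, with -0.98 in cow and 0.94 in pig. The pairing of these 2 steps was chosen after the values were seen. At the first step none of the 5 genes compared in both species had the same sign, with TRIM28 at 0.64 in cow and -0.75 in pig and SETDB1 at 0.89 and -1.12. Signs within counting error were those of cow ZNF445 (interval of the ratio 0.977 to 1.70), pig TRIM28 (0.282 to 1.02) and pig SUV39H2 (0.936 to 1.10). All genes compared also had medians of opposite sign at this step, 0.27 in cow and -0.14 in pig. With median ratio scaling these medians were -0.015 and 0.114. The sign of ZNF445 at that step was positive in both with median ratio scaling.

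From oocyte to blastocyst 1 of 7 cow genes changed, SUV39H2, which fell (40.2% of all 12738 genes changed, 21.8% higher and 18.4% lower). In pig 3 of 7 changed, ZFP57 and TRIM28 higher and ZNF445 lower (45.2% of 12512 genes, 26.0% higher and 19.2% lower). The cow change of ZNF445, from 20.5 to 5.71 RPM, was -1.68, and -2.02 with quantile normalisation. The medians over the genes compared were -0.60 in cow and -0.80 in pig, against 0.18 and 0.43 over all genes compared. The 5 genes compared in both species had the same sign in both, SUV39H1 only without quantile normalisation, under which its pig change was -0.33 in place of 0.29. Two-species agreement of sign is not shown beyond counting error for TRIM28 and SUV39H1. The interval of the ratio held 1 for cow TRIM28 (0.997 to 1.55) and for pig SUV39H1 (0.623 to 2.64).

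Genes with a similar course were sought over the 10 libraries among 9689 symbols present in both tables, by the root mean square difference of log2(RPM + 1) after each gene was centred within its species. For SUV39H2 the nearest was MEST, a paternally expressed imprinted gene, with a difference of 0.23, where the median over all symbols was 1.87. MEST stood at 45.03, 33.3, 7.36, 3.33 and 0.212 RPM in the cow stages, the last from 3 reads, and at 200.4, 207, 225, 28.6 and 65.7 RPM in the pig stages. PHKA2, a subunit of phosphorylase kinase, and INPP5B, an inositol phosphatase, followed with 0.31 and 0.34. CNOT11, a subunit of the deadenylase complex CCR4-NOT, was nearest to SETDB1 (0.20), before DGKE (0.22) and TRAPPC11 (0.26), where the median was 1.38. Nearest to ZNF445 were CCDC34 (0.25), DOPEY1 (0.26) and NKAP (0.27), with a median of 1.55. ZFP57 had no neighbour as close: MGST1, a microsomal glutathione transferase, MFSD8 and GABARAPL1, an autophagy gene, stood at 0.52, 0.54 and 0.57, with a median of 2.03. Among the 15 pairs of the 6 genes matched in both species, ZNF445 and SETDB1 had the smallest difference (0.59), and ZFP57 and SUV39H2 the largest (2.98).

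Genes that work with these factors were taken from 7 lists of 47 genes in all, of which 45 were matched in cow and 39 in pig. From oocyte to blastocyst 7 of 44 compared in cow rose and 10 fell, with a median of -0.91, and 2 of 39 in pig rose and 7 fell, with a median of -0.66. Scaled to non-mitochondrial reads, 9 rose and 8 fell in cow, and 2 rose and 5 fell in pig. These are to be read against the 21.8% higher and 18.4% lower of all cow genes and the 26.0% higher and 19.2% lower of all pig genes. Of the HP1 readers (CBX1, CBX3 and CBX5), which bind methylated H3K9, none of 2 compared changed in cow and none of 2 in pig. This holds from oocyte to blastocyst, and pig CBX1 fell between morulae and blastocysts.

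The list with the most falls in cow held genes that maintain methylation or imprints in oocyte and embryo. Of 7 such genes in cow 6 fell from oocyte to blastocyst and none rose, and of 4 in pig 3 fell and none rose. The medians were -3.94 and -3.59. Of all genes compared, 18.4% fell in cow and 19.2% in pig. UHRF1, which guides maintenance methylation, went from 356 to 3.74 RPM in cow, 95.2-fold lower. NLRP5, a gene of the subcortical maternal complex, went from 65.9 to 0.282 RPM in cow, the latter from 4 reads. It is also among the 8 cow oocyte markers summed above, so its fall was already part of the check of the stage labels. In pig DNMT1, the maintenance methyltransferase, went from 34449 to 30.03 RPM, and ARID4A, a chromatin protein linked to imprint control, from 1539 to 69.7 RPM, 22.1-fold lower. In the list of cofactors of TRIM28 and SETDB1, none rose from oocyte to blastocyst. Over this course 2 of 10 fell in cow, SETDB2 among them, and 3 of 9 in pig, MORC3 and CHAF1B among them. Cow SETDB2 rose from 44.8 RPM in 2-4 cell to 208 RPM in 8-16 cell embryos before it fell to 12.5 RPM in blastocysts. ATF7IP, which binds SETDB1 and was picked here after its values were seen, was highest in cow 8-16 cell embryos, with 428 RPM against 24.5 RPM in oocytes, and lay between 134 and 159.5 RPM in all pig libraries.

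Enzymes that remove H3K9 methylation held both pig genes that rose and 3 of the 7 cow ones. Of 8 H3K9 demethylases compared in cow 3 rose and none fell, and of 8 in pig 2 rose and none fell. Among all genes compared, 21.8% rose in cow and 26.0% in pig. The medians of the list were 1.29 and 0.43, against 0.18 and 0.43 over all genes. In pig both the share that rose and the median were thus near those of all genes. KDM4A, a demethylase of trimethylated H3K9, rose in both, 6.24-fold in cow, where it went from 23.9 to 149 RPM, and 8.92-fold in pig, where it went from 3.85 to 34.3 RPM. KDM4C, its relative, rose 4.28-fold in pig, from 33.5 to 143 RPM, and went from 34.5 to 103 RPM in cow. The other cow genes were KDM3B (18.7 to 125 RPM) and PHF8 (22.7 to 174 RPM). Among CTCF and cohesin partners 2 of 10 rose in cow from oocyte to blastocyst and 1 fell, while none of 11 in pig changed. Between pig morulae and blastocysts ZNF143 rose and STAG2 fell. STAG2, a cohesin subunit, rose 16.7-fold in cow, from 12.8 to 213 RPM, and was higher still in cow morulae, at 769 RPM. In pig STAG2 had 31.7 RPM in oocytes, 392 RPM in morulae and 83.4 RPM in blastocysts. SMC1A, also a cohesin subunit, rose 7.85-fold in cow, from 22.9 to 179.9 RPM, and SMC3 was the one that fell there, from 1327 to 159.7 RPM.

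The HUSH complex silences repeats through H3K9 methylation; of its 4 genes PPHLN1 rose in cow, from 17.04 to 90.6 RPM, and none changed in pig. Among partners of the EHMT complex 1 of 3 rose and 1 fell in cow, and the 1 compared in pig fell. That gene was ZNF644, a zinc finger protein that brings the complex to DNA, which had 10.1 RPM in oocytes and 62.2 RPM in blastocysts of cow, against 287 and 12.3 RPM in those of pig.

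**Figure D4:**
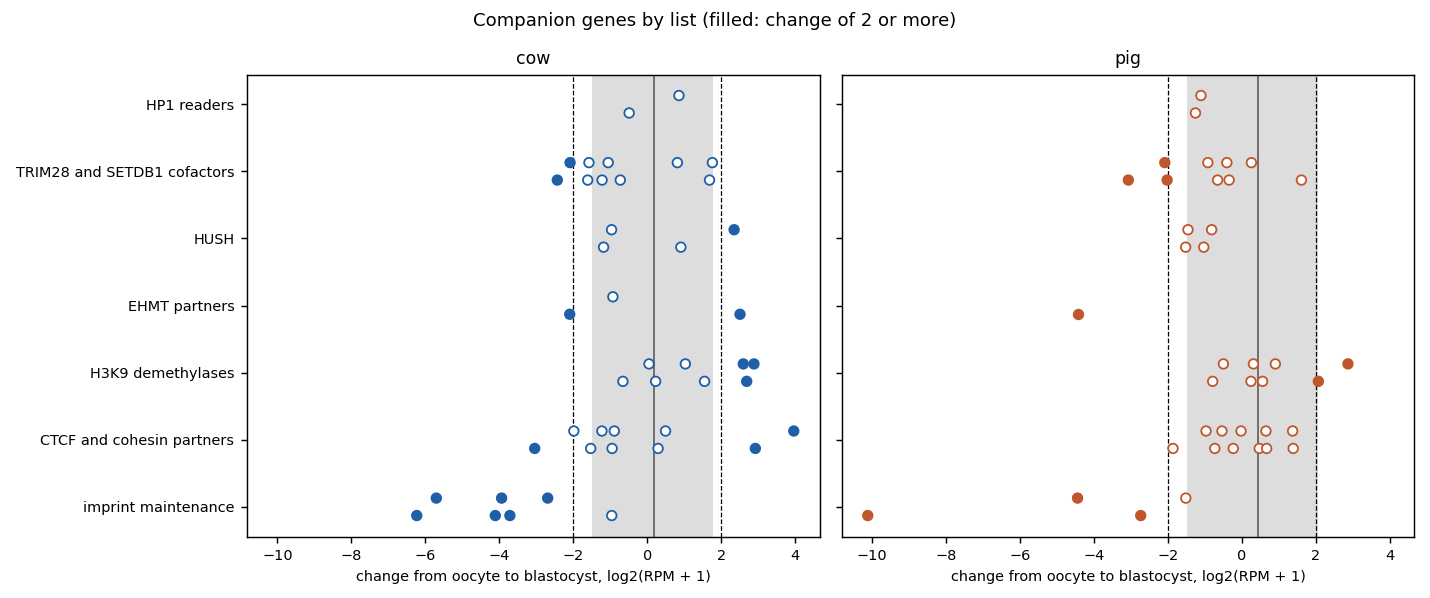
Change from oocyte to blastocyst on the log2(RPM + 1) scale (horizontal axis) of the companion genes by list (vertical axis) in cow (left) and pig (right), with 1 point per gene, filled where the change was 2 or more. The grey band spans the 25th to the 75th percentile of all genes compared, the solid line is their median, and dashed lines mark a change of 2; 6 of 7 imprint maintenance genes in cow and 3 of 4 in pig lie left of the lower dashed line.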

How the data were processed

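Total RNA of 10 libraries was extracted with a kit for small samples, amplified as cDNA and given 8 PCR cycles, per the labels' protocols; no molecular identifiers are described, so reads are not independent molecules. The submitters' processing notes name Trim Galore 0.6.4, HISAT2 2.1.0 and the builds UMD3.1 and Sscrofa11.1. The counting program, annotation, strand setting and duplicate removal are not given in the sources used here. The authors deposited log2 values, 1 table per species. Genes without reads are written as 0.9 of a read; between 99.97% and 100% of the values with reads lay within 0.02 of a whole read, so reads and read totals were recovered.

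Genes were matched by symbol, taking the row with the highest mean where a symbol was repeated, and changes used the deposited values with a pseudocount of 1. Intervals are 95% Wilson intervals for levels and shares, and exact conditional binomial intervals for ratios; neighbours in an order were said not to differ beyond counting error where the interval of their ratio held 1. A count of 0 was taken to allow 3 reads. With 1 library per group no test was run. Scripts used Python 3.11.15, numpy 2.4.6, pandas 2.3.3 and scipy 1.17.1 and were tested on simulated data. The named genes are all members at all stages; from the companion lists, per species, the 2 largest rises and the 2 largest falls; and, for each member with a range of 2 or more in both species, the 3 symbols nearest to it. Other companions named as changed complete counts of few genes and were named after their values were seen. The values of 1 companion gene, which is in the counts, are not reported here. Members and lists were chosen with earlier results of these data known. No gene length or sequence was used. The tables of both species were scaled separately, so levels are not compared across species.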

Additional observations from a re-analysis of the deposited data

Results flagged for a closer look

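ZFP57 moved past the threshold in opposite directions between morulae and blastocysts: on the log2(RPM + 1) scale the cow change was -2.63 and the pig change 2.48, each from 1 library per stage; the difference between the species was not tested. The cow value rests on 44 reads in morulae and 14 in blastocysts, in a row that overlaps MOG.

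ZNF644 moved past the threshold in opposite directions from oocyte to blastocyst, the cow change being 2.50 and the pig change -4.43; the difference was not tested.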

How the results depend on the processing

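The 12 changes past the threshold gave 60 recomputations under other pseudocounts (0.1 and 0.5) and 3 scalings, all of which kept their sign and stayed past it. The 3 of them that start from 0 reads also stayed past it with 0 reads taken as 0 RPM (added after seeing the data); no member has repeated rows, so summing rows could move none. Of 295 recomputations of smaller changes under the same pseudocounts and scalings 6 took the other sign, the one farthest from 0 being the -0.33 of pig SUV39H1 over the whole course with quantile normalisation. With median ratio scaling SETDB1 joined the pig genes that fell from oocyte to blastocyst, which made 2, and the companions that rose in pig numbered 1. With quantile normalisation ZNF445 joined the cow genes that fell, which made 2. At a threshold of 1 the counts over consecutive steps were 1, 6, 5 and 4 in cow, and 2, 1 and 4 in pig at the first, second and last; from oocyte to blastocyst 1 was higher and 3 lower in cow, 3 were lower in pig, and companions numbered 11 higher and 18 lower in cow and 5 and 14 in pig. At a threshold of 3 the cow counts were 1 at the second step and 0 at the last, the pig counts were 1 at the third step, 0 at the last and 0 lower over the whole course, and companions numbered 1 higher and 6 lower in cow and 0 and 4 in pig. Filters on low values moved no count by more than 1.5 times. By Pearson correlation 6 of the 12 nearest genes stayed among the nearest.

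Scaling moved the background: over the whole course all genes had a median change of 0.59 in cow with non-mitochondrial scaling and 0.02 in pig with quantile normalisation. The share of higher genes among those changed was 46.5% at the cow step to the 8-16 cell stage and 61.2% with median ratio scaling, 88.9% at the pig step to the 8-16 cell stage against 78.3% with median ratio scaling and 62.7% with quantile normalisation, 52.4% at the first cow step against 22.5% with median ratio scaling and 24.4% with quantile normalisation, and 59.97% at the first pig step and 72.8% with median ratio scaling. Shares within pairs weighted by coding length were not run, since no length was at hand. No paired analysis was possible because each group had 1 library and no test was run.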
